A study of Rattus norvegicus with 21 samples.

Results

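Livers of rats given the higher doses of 2-ethylhexyl diphenyl phosphate, a plasticizer and flame retardant of the organophosphate class, were compared with livers of rats given the lower doses of the same compound. The high pool held 6 arrays, 3 from rats at 489.2 mg/kg and 3 from rats at 978.5 mg/kg, and the low pool held 6 arrays, 3 at 61.2 mg/kg and 3 at 122.5 mg/kg. These 12 arrays, chosen by the dose in their titles, are 12 of the 21 in the series. The other 9, 6 from rats given corn oil alone (vehicle) and 3 at 244.6 mg/kg, entered no test and are used to place the levels. The protocol in the labels gives 5 vehicle rats, against 6 vehicle arrays, and the labels used here do not resolve the difference. The compound is abbreviated EHDP in the series text and EDHP in the sample labels. All animals were male Harlan Sprague-Dawley rats, whose age the labels used here do not give. Every rat in both pools had received the compound, in corn oil, by oral gavage once a day for 4 days, and liver was taken on day 5. No arm of the comparison is therefore untreated, and it asks how the liver at the higher doses differs from a liver already exposed at lower ones.

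The liver meets foreign lipophilic compounds with a small set of sensor proteins. The nuclear receptors CAR and PXR switch on oxidising enzymes, conjugating enzymes and export pumps. The aryl hydrocarbon receptor induces Cyp1 enzymes, and NRF2, which is freed from its inhibitor KEAP1 by electrophiles, binds antioxidant response elements in front of genes for glutathione and quinone metabolism. Hepatocytes also run a circadian clock, in which the activators BMAL1, CLOCK and NPAS2 drive genes such as Dbp and Per3 through E-boxes. Proteins that are damaged or no longer needed are degraded by the proteasome, a barrel of alpha and beta subunits with a regulatory cap.

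The deposited values are log2 signals, so a difference of 1 is a doubling. Array medians of the 12 arrays lay between 6.33 and 6.41, and each array's correlation with the remaining 11 averaged 0.9895 to 0.9931. By medians and correlations no array stood apart. The first principal component, with 21.9% of the variance, ran from -16.4 to -5.1 over the low arrays and from 1.5 to 15 over the high arrays. The second (17.8%) ran from -17 in the 489.2 mg/kg array 1 to 23.1 in the 978.5 mg/kg array 3. The third (16.1%) ran from -15.5 in the 122.5 mg/kg array 3 to 21.8 in the 489.2 mg/kg array 3. The labelled tissue carried its markers: the 17 hepatocyte markers had a mean log2 signal between 13.68 and 13.81 in the low arrays and between 13.57 and 13.78 in the high arrays. None of the 17 was called, and their median difference was -0.02. Albumin (Alb) lay at 15.35 in the low and 15.34 in the high pool, close to the top of the scale. In a bulk tissue, fewer cells of a type and less RNA per cell cannot be told apart, and this applies to every difference given here.

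Of 14218 genes tested with limma, 350 (2.46%) differed between the pools at an adjusted p under 0.05, 206 higher (1.45%) and 144 lower (1.01%) at the high doses. These are the genes called higher or lower below, and these shares over all genes are the background to the counts of list members. Among them 116 differed by at least 1.5-fold, 59 higher and 57 lower, and 40 by at least 2-fold, 20 in each direction. In 175 of the 350 called genes all 6 high arrays lay beyond all 6 low arrays. Over all genes, pools that did not overlap were found in 266 (1.87%), 167 with the high pool above (1.17%) and 99 with it below (0.696%). The count fell to 196 without the 122.5 mg/kg array 2, to 206 without the 61.2 mg/kg array 2 and to 233 without either the 61.2 mg/kg array 1 or the 978.5 mg/kg array 2.

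**Figure D1:**
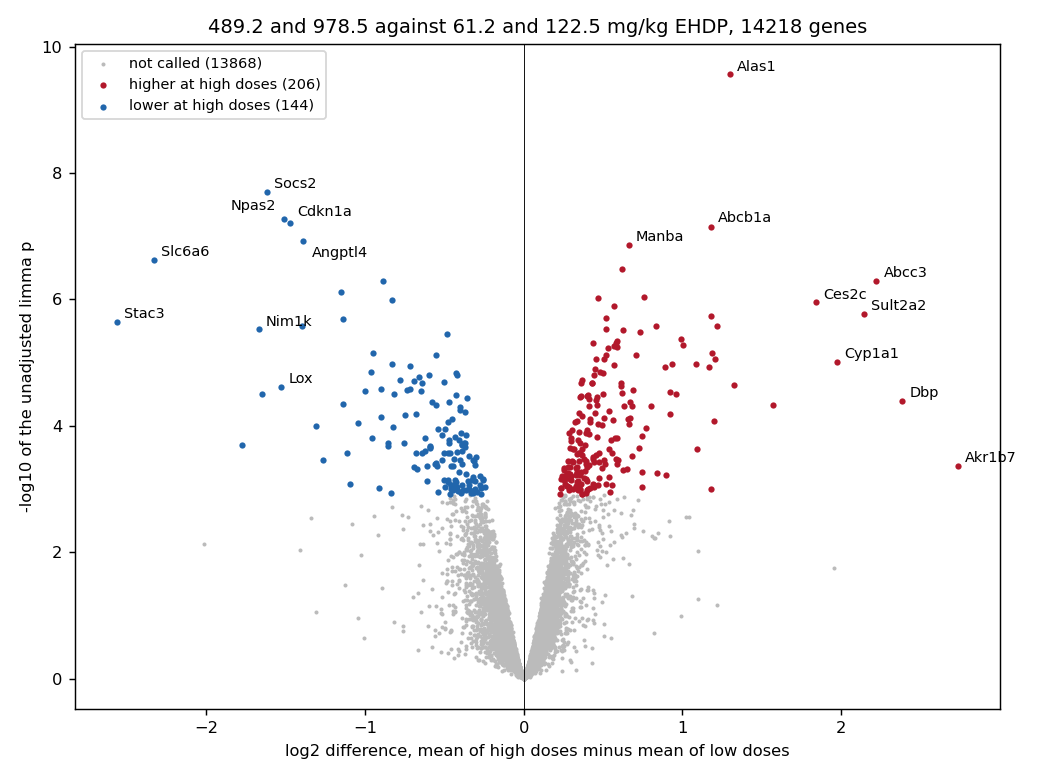
Each of the 14218 genes is a point, with the log2 difference between the mean of the high doses and the mean of the low doses on the horizontal axis and -log10 of the unadjusted limma p on the vertical axis. Red points are the 206 genes called higher and blue points the 144 called lower. Alas1 has the smallest p, Akr1b7 the largest positive difference (2.73) and Stac3 the largest negative one (-2.56).

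Genes of drug metabolism were among the largest rises. Of 23 measured target genes of CAR and PXR, 11 were called higher and none lower, against 1.45% and 1.01% of all genes. Their median difference was 0.45, against -0.01 over all genes. The 11 were Akr1b7, Abcc3, Sult2a2, Ces2c, Alas1, Gadd45b, Abcb1a, Por, Cyp3a23-3a1, Aldh1a1 and Ugt2b1. In 7 of the 23 genes the high pool lay above the low pool without overlap, against 1.17% of all genes. The mean signal of the 23 genes lay between 10.29 and 10.53 in the low arrays and between 10.79 and 11.63 in the high arrays, so no array of one pool reached into the other.

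Alas1 encodes the rate-limiting enzyme of haem synthesis, which supplies the prosthetic group of every cytochrome P450 (chr8:115755238-115768642, GRCr8). Its log2 signals were 11.03, 10.96 and 11.06 at 61.2 mg/kg, 10.57, 10.87 and 10.68 at 122.5 mg/kg, 11.85, 11.88 and 11.87 at 489.2 mg/kg and 12.34, 12.67 and 12.35 at 978.5 mg/kg. All 6 high arrays lay above all 6 low arrays, and the arrays of 489.2 mg/kg were nearly alike. The rise was 1.30 ± 0.07 (SE, 2.46-fold, limma, adjusted p = 3.89e-06, n = 6 and 6), the smallest p among the 14218 genes. The 17 measured genes of haem synthesis and breakdown held no other called gene. Por, the reductase that passes electrons from NADPH to microsomal cytochromes P450, rose as well, by 1.17 ± 0.17 (SE, adjusted p = 0.0031). Its low arrays ran from 9.11 to 9.95 and its high arrays from 9.92 to 10.92, so a single pair of arrays overlapped.

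Abcc3 encodes MRP3, a pump of the basolateral hepatocyte membrane that returns glucuronides and bile acid conjugates to blood (chr10:79793571-79839528). Its signals were 8.03, 7.70 and 7.08 at 61.2 mg/kg, 8.27, 8.37 and 9.02 at 122.5 mg/kg, 10.60, 10.33 and 9.58 at 489.2 mg/kg and 10.23, 11.12 and 9.94 at 978.5 mg/kg. The pools did not overlap, and the rise was 2.22 ± 0.24 (SE, 4.66-fold, adjusted p = 0.00067). The vehicle mean lay still lower, at 6.93, and the 244.6 mg/kg mean, at 9.82, lay near the high pool.

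Ces2c is a carboxylesterase, an enzyme that hydrolyses ester bonds of drugs and lipids. It measured 9.97, 10.41 and 10.30 at 61.2 mg/kg, 11.51, 11.04 and 10.96 at 122.5 mg/kg, 12.91, 11.62 and 12.38 at 489.2 mg/kg and 12.72, 13.32 and 12.30 at 978.5 mg/kg. The lowest high array (11.62) lay just above the highest low array (11.51), and the 2 low doses were themselves apart. The rise was 1.84 ± 0.21 (SE, 3.58-fold, adjusted p = 0.000991). It was the only called gene among 15 carboxylesterases and related esterases, whose median difference was 0.00177.

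Abcb1a, the P-glycoprotein pump that expels drugs into bile, behaved differently between the 2 doses of the high pool. It lay between 7.47 and 7.80 in the low arrays, at 8.10, 8.36 and 8.30 at 489.2 mg/kg and at 9.01, 9.50 and 9.64 at 978.5 mg/kg. The pools did not overlap and neither did the 2 high doses. The difference between the pools was 1.18 ± 0.11 (SE, adjusted p = 0.000205), and the step from 489.2 to 978.5 mg/kg was 1.13 ± 0.15 (SE, adjusted p = 0.0258). Gadd45b, a growth arrest and stress gene with a described CAR response, lay between 5.95 and 6.34 in the low pool, at 6.60, 7.11 and 6.58 at 489.2 mg/kg and at 7.50, 8.50 and 7.81 at 978.5 mg/kg. Its pools did not overlap, and it rose by 1.22 ± 0.15 (SE, adjusted p = 0.00153).

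Other members of the group changed less or less evenly. Cyp3a23-3a1, the main PXR-induced CYP3A enzyme, was already at 14.03 in the low pool against 13.26 in vehicle, and reached 14.54 in the high pool. Its rise of 0.51 ± 0.11 (SE, adjusted p = 0.0252) was lost in 5 of the 12 fits that left out 1 array (61.2 mg/kg array 1, 122.5 mg/kg arrays 1 and 2, and 978.5 mg/kg arrays 1 and 3; adjusted p up to 0.0665). Ugt2b1, a glucuronosyltransferase, also stood well above vehicle (12.80) in the low pool (13.70) and rose by 0.45 ± 0.07 (SE, adjusted p = 0.00328) to 14.15, with no overlap. Aldh1a1, a retinal dehydrogenase, rose by 0.51 ± 0.09 (SE, adjusted p = 0.00884). Akr1b7, an aldo-keto reductase, showed the largest positive difference of the 14218 genes, 2.73 ± 0.58 (SE, adjusted p = 0.0261), and the widest spread. Its high arrays were 7.44, 5.15 and 8.47 at 489.2 mg/kg and 9.07, 10.84 and 7.42 at 978.5 mg/kg, and the low arrays ran from 4.40 to 5.89, so the 489.2 mg/kg array 2 lay inside the low pool. Its call was lost in 7 of the 12 fits without 1 array (61.2 mg/kg arrays 1 and 2, 122.5 mg/kg arrays 2 and 3, 489.2 mg/kg array 1, and 978.5 mg/kg arrays 1 and 2; adjusted p up to 0.0787).

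**Figure D2:**
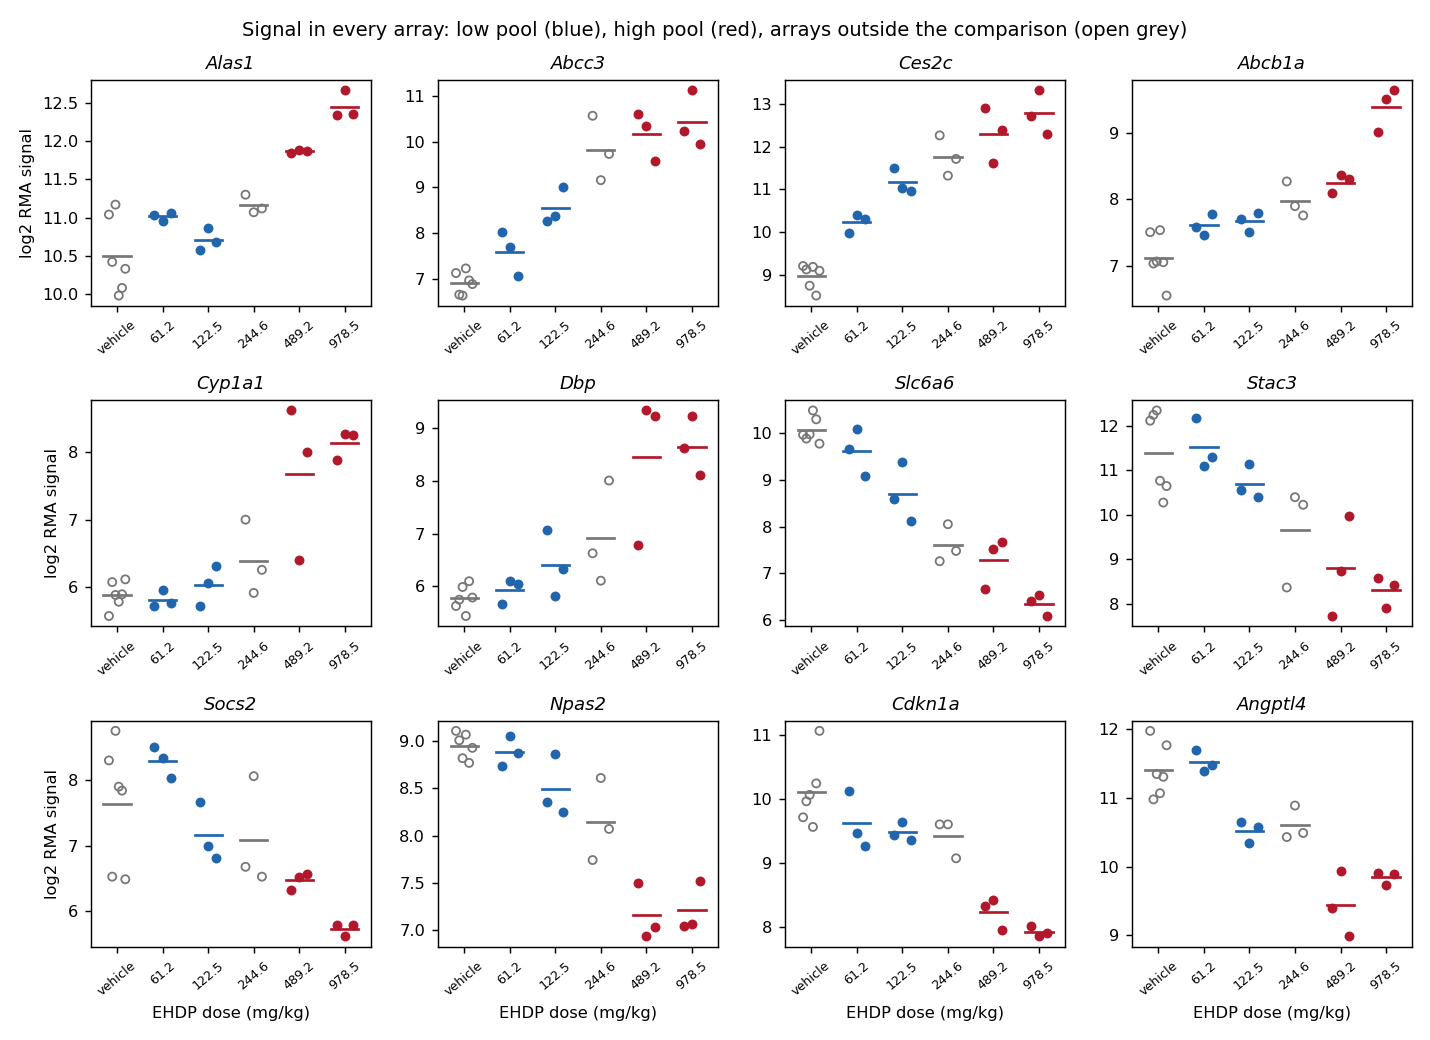
Log2 RMA signal of 12 genes in every array, by EHDP dose in mg/kg; points are single arrays, bars are dose means, blue is the low pool, red the high pool, and open grey points are the vehicle and 244.6 mg/kg arrays outside the comparison. Alas1 and Abcb1a climb between 489.2 and 978.5 mg/kg, while Npas2 lies near the same level at both (7.16 and 7.20).

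Among the conjugating enzymes and pumps, 7 of 36 measured genes were called higher and 1, Sult1c3, lower, with a median difference of 0.10. Shares over all genes were 1.45% higher and 1.01% lower. The higher ones were Sult2a2, Sult2a6, Abcc3, Abcb1a, Gsta3, Gsta4 and Ugt2b1, and 4 of them are in the CAR and PXR group too. Sult2a2 and Sult2a6 are hydroxysteroid sulfotransferases, which add sulfate to bile acids and steroids. Sult2a2 lay between 3.57 and 3.80 in the low arrays, at 4.81, 3.68 and 4.05 at 489.2 mg/kg and at 7.13, 6.74 and 8.52 at 978.5 mg/kg. Only the 978.5 mg/kg arrays cleared the low pool as a set. The step between the high doses was 3.29 ± 0.37 (SE, adjusted p = 0.0099), and the difference between the pools 2.14 ± 0.26 (SE, adjusted p = 0.00133). All low and all 489.2 mg/kg arrays lay under 5.55, the 20th percentile of gene values, so both sizes depend on values near the bottom of the scale. With values raised to that percentile as a floor, the difference between the pools was 0.96 and was not called (adjusted p = 0.134). Sult2a6 rose by 1.21 ± 0.17 (SE, adjusted p = 0.00275), with 11.95, 11.29 and 12.28 at 489.2 mg/kg and 12.89, 12.70 and 13.07 at 978.5 mg/kg against 10.62 to 11.83 in the low pool. Its step between the high doses was not called (adjusted p = 0.163).

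Differences in the NRF2 group were smaller. Of 32 measured targets, 6 were called higher and none lower, and 28 had a difference above 0, with a median of 0.27. The share of all genes called higher was 1.45%. The mean signal of the 32 ran from 10.15 to 10.41 in the low arrays and from 10.45 to 10.84 in the high arrays, and from 9.79 to 9.93 in vehicle. The 6 were Abcc3, Gsta3, Pir, Slc7a11, Gsta4 and Gsr. Antioxidant response elements near the start of Pir and Gsta3 can be read in their promoters, taken from RefSeq (build GRCr8, 250 bases before to 50 after the start). Pir and Gsta3 are shown because they are called members whose windows hold the element's core, and capitals mark each match to TGACNNNGC on either strand. The Pir window (chrX:33851000-33851299, minus strand) holds 2 matches and the Gsta3 window (chr9:31154739-31155038, plus strand) 1.
Pir: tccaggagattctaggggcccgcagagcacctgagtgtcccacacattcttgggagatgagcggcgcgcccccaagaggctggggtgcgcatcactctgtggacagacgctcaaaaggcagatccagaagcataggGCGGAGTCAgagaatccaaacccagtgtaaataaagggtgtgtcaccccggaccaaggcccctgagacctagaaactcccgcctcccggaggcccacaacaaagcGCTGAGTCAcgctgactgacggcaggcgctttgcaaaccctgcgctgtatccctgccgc
Gsta3: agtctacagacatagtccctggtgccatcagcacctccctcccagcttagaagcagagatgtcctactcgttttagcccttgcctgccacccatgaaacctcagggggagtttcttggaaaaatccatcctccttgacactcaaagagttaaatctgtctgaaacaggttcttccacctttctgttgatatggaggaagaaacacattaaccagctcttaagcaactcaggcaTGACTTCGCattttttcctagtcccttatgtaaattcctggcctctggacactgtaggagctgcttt
The same letters were found in 8 of 29 NRF2 targets with a promoter sequence (27.6%), in 27 of 173 genes called higher (15.6%), in 16 of 123 called lower and in 14.4% of all 11701 measured genes with one. A match is a description of the sequence only.

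Pir, the iron-binding nuclear protein pirin, measured 8.27, 7.93 and 8.11 at 61.2 mg/kg, 7.82, 8.02 and 8.33 at 122.5 mg/kg, 8.74, 8.51 and 8.71 at 489.2 mg/kg and 8.98, 8.86 and 9.05 at 978.5 mg/kg. The pools did not overlap, and the rise was 0.73 ± 0.09 (SE, adjusted p = 0.00162). Gsta4, a glutathione transferase that detoxifies 4-hydroxynonenal, rose without overlap by 0.57 ± 0.08 (SE, adjusted p = 0.00219), from 11.90 to 12.47. Slc7a11, the cystine importer that feeds glutathione synthesis, rose by 0.67 ± 0.11 (SE, adjusted p = 0.00608), from 5.45 to 6.12, near the lower end of the scale. Gsta3 was far above vehicle (8.03) at the low doses already (9.61) and reached 10.51, a rise of 0.90 ± 0.20 (SE, adjusted p = 0.0328). Glutathione reductase (Gsr) rose by 0.54 ± 0.13 (SE, adjusted p = 0.0473). Both calls were fragile: without 1 array, Gsta3 lost its call in 8 of 12 fits (all but those without 122.5 mg/kg array 3 or a 489.2 mg/kg array; adjusted p up to 0.0864) and Gsr in 10 (all but those without 122.5 mg/kg array 1 or 3, up to 0.117), and with the replicate number as a block Gsr had an adjusted p of 0.0568. Nqo1, the NRF2 target quinone reductase, had a difference of 0.81 ± 0.24 (SE) that missed the threshold (adjusted p = 0.113). Its high arrays ran from 9.38 to 11.22. Gclm, a subunit of the enzyme that starts glutathione synthesis, differed by 0.30 ± 0.10 (SE, adjusted p = 0.136).

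The aryl hydrocarbon receptor group was represented by 1 called gene of 9. Cyp1a1, its classical target, lay between 5.72 and 6.32 in the low arrays, at 8.61, 6.40 and 7.99 at 489.2 mg/kg and at 7.88, 8.26 and 8.25 at 978.5 mg/kg. All high arrays lay above all low arrays, although the 489.2 mg/kg array 2 did so by under 0.1. The rise was 1.97 ± 0.28 (SE, 3.93-fold, adjusted p = 0.00296). Cyp1a2, the Cyp1 enzyme that hepatocytes carry without induction, stood at 13.20 in the low and 12.94 in the high pool, a difference of -0.27 ± 0.12 (SE, adjusted p = 0.327). The median of the 9 genes was -0.03. Among 18 constitutive enzymes of cytochrome P450 family 2, none was called higher and 2, Cyp2c11 and Cyp2f4, were called lower. The shares over all genes were 1.45% and 1.01%. Cyp2f4 differed by -0.37 ± 0.09 (SE, adjusted p = 0.0446) and lost its call in 9 of the 12 fits without 1 array (all but those without 122.5 mg/kg array 3, 489.2 mg/kg array 2 or 978.5 mg/kg array 1; adjusted p up to 0.125).

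Most called circadian genes differed in direction by their place in the clock. Of 16 measured clock output genes and repressors, 8 were called higher (Dbp, Per3, Nr1d1, Nr1d2, Usp2, Tef, Hlf and Cry2) and 1 lower (Nfil3). Of these 16, 13 lay above 0, with a median of 0.28. Of 9 activators and genes of the opposite phase, none was called higher and 2, Npas2 and Bmal1, were called lower. In this second list 3 of the 9 lay above 0, by up to 0.70, and the median was -0.14. With array weights, or without the 61.2 mg/kg array 3, 1 of the 9 was called higher. Among all genes 1.45% were called higher and 1.01% lower. Dbp, a PAR bZIP factor that drives cytochrome P450 rhythms, lay between 5.67 and 7.08 in the low arrays, at 6.79, 9.34 and 9.24 at 489.2 mg/kg and at 8.62, 9.23 and 8.11 at 978.5 mg/kg. The pools overlapped through the 489.2 mg/kg array 1 alone. The rise was 2.38 ± 0.39 (SE, 5.22-fold, adjusted p = 0.0059). The vehicle arrays, at 5.44 to 6.10, lay with the low pool.

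Npas2, a partner of BMAL1, measured 8.74, 9.06 and 8.87 at 61.2 mg/kg, 8.36, 8.86 and 8.25 at 122.5 mg/kg, 7.50, 6.93 and 7.03 at 489.2 mg/kg and 7.04, 7.06 and 7.52 at 978.5 mg/kg. The pools were clearly separate, and the fall was -1.51 ± 0.13 (SE, 2.85-fold, adjusted p = 0.000205). Bmal1 fell by 1.14 on the log2 scale (SE 0.14; adjusted p = 0.00137), from 8.26 to 8.79 in the low arrays to 7.01 to 7.80 in the high arrays, again without overlap. Per3, a period repressor, rose by 1.18 ± 0.14 (SE, adjusted p = 0.00137), from 5.14 to 6.07 in the low arrays to 6.24 to 7.15 in the high arrays. The 489.2 and 978.5 mg/kg means of Npas2, Bmal1, Per3 and Dbp differed by at most 0.20, and none of these steps was called.

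Tef, another PAR bZIP factor, rose without overlap by 0.63 ± 0.11 (SE, adjusted p = 0.00647), from 8.61 to 9.25. Its promoter window (chr7:115206577-115206876, plus strand, GRCr8, RefSeq) is shown because it holds 1 E-box, CACGTG, the element through which BMAL1 complexes act. Capitals mark it.
Tef: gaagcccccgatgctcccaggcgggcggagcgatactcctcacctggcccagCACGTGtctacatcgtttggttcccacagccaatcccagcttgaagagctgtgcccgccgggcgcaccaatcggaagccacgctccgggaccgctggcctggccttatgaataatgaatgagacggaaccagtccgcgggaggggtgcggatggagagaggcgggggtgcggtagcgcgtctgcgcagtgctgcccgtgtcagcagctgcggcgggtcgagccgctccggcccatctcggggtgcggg
An E-box was present in 3 of 12 clock output genes with a promoter sequence (25%), in 23 of the 173 genes called higher (13.3%), in 9.76% of those called lower and in 8.94% of all 11701. Hlf, the remaining PAR bZIP factor, rose by 0.47 ± 0.08 (SE, adjusted p = 0.01), and Usp2, a clock-controlled deubiquitinase, by 1.09 ± 0.16 (SE, adjusted p = 0.00303). Usp2 was at 8.35, 8.36 and 8.18 at 489.2 mg/kg and at 7.58, 7.93 and 7.15 at 978.5 mg/kg.

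The calls of the REV-ERB repressor Nr1d1 (1.18 ± 0.28 SE, adjusted p = 0.0438) and of Nfil3 (-0.55 ± 0.12 SE, adjusted p = 0.0261), a repressor of D-box genes, were less firm. Nr1d1 lost its call in 9 of 12 fits without 1 array (all but those without 61.2 mg/kg array 3, 122.5 mg/kg array 1 or 489.2 mg/kg array 1, adjusted p up to 0.113) and with the replicate block (0.0606). Nfil3 lost it in 6 (61.2 mg/kg arrays 1 and 2, 122.5 mg/kg arrays 1 and 2, and 978.5 mg/kg arrays 1 and 3; up to 0.0746). Nr1d2 (1.09 ± 0.22 SE, adjusted p = 0.0183) lost it in 2 (61.2 and 122.5 mg/kg arrays 2; up to 0.0544) and Cry2 (0.36 ± 0.07 SE, adjusted p = 0.0197) in 1 (978.5 mg/kg array 2; 0.0536). Cry1 had a difference of -0.59 ± 0.16 (SE, adjusted p = 0.0909). The hour at which each liver was taken is not given in the labels used here, and its part in these values was not tested.

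In the list of growth hormone and IGF axis genes, the few that were called were all lower. The pulsatile growth hormone of male rats acts on the liver through STAT5 and keeps male-biased genes high. Socs2, the STAT5 target that feeds back on the receptor, measured 8.50, 8.34 and 8.03 at 61.2 mg/kg, 7.67, 7.00 and 6.81 at 122.5 mg/kg, 6.33, 6.52 and 6.57 at 489.2 mg/kg and 5.80, 5.62 and 5.80 at 978.5 mg/kg. Its dose means fell in order from 8.29 to 5.74, the pools did not overlap, and the difference was -1.62 ± 0.13 (SE, 3.06-fold, adjusted p = 0.000141). The 6 vehicle arrays, at 6.49 to 8.75, enclosed the range of the low pool, and the lowest of them lay inside the range of the high pool. The median of 19 genes of the growth hormone and IGF axis was -0.08. Of these, 3 were called lower, against 1.01% of all genes, and none higher. The other two were Igfbp3, the main carrier of IGF-1 (-0.44 ± 0.09 SE, adjusted p = 0.0263), and Igf1 (-0.26 ± 0.06 SE, adjusted p = 0.0361). The count of 3 fell to 1 without the 61.2 mg/kg array 1 or 2, the 122.5 mg/kg array 2 or the 978.5 mg/kg array 1, and to 2 without the 61.2 mg/kg array 3, the 122.5 mg/kg array 1 or 3, the 489.2 mg/kg array 1 or 3 or the 978.5 mg/kg array 2.

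Of 17 male-biased genes, 4 were called lower and none higher: Hao2, Cyp2c11, Sult1c3 and Igf1. The list did not run one way: 7 of the 17 lay above 0, its median was -0.11, and its largest difference was that of Bcl6, a transcriptional repressor, at 1.21 ± 0.61 (SE, adjusted p = 0.399), which was not called. In Cyp3a2, also not called, the high pool lay above the low pool without overlap. With all 21 arrays, with array weights or with the floor at the 20th percentile, 1 member of the list was called higher. Hao2, a peroxisomal hydroxyacid oxidase, fell by 0.90 (SE 0.16; adjusted p = 0.00884), from 12.48 to 12.93 in the low arrays to 11.29 to 12.23 in the high arrays, without overlap. Cyp2c11, the male-specific steroid hydroxylase, lay at 14.06, 14.25 and 14.19 at 489.2 mg/kg and at 13.64, 13.93 and 13.71 at 978.5 mg/kg against 14.23 to 14.36 in the low pool, a difference of -0.31 ± 0.07 (SE, adjusted p = 0.0259). Sult1c3, a cytosolic sulfotransferase, differed by -0.46 ± 0.11 (SE, adjusted p = 0.0405). The count of 4 fell to 1 without the 61.2 mg/kg array 1 or 2, the 122.5 mg/kg array 1 or 2, the 489.2 mg/kg array 1 or the 978.5 mg/kg array 1, and to 2 without the 978.5 mg/kg array 2 or 3. Without 1 array Igf1 lost its call in 9 of 12 fits (all but those without 61.2 mg/kg array 3, 122.5 mg/kg array 3 or 489.2 mg/kg array 2; adjusted p up to 0.099), Sult1c3 in 10 (all but those without 489.2 or 978.5 mg/kg array 3; up to 0.0969), Cyp2c11 in 7 (61.2 and 122.5 mg/kg arrays 1 and 2, 489.2 mg/kg array 1, and 978.5 mg/kg arrays 1 and 3; up to 0.0815) and Igfbp3 in 6 (the 61.2 mg/kg arrays, 122.5 mg/kg arrays 2 and 3, and 978.5 mg/kg array 1; up to 0.0801). Of 16 female-biased genes, 4 were called higher (Akr1b7, Sult2a2, Sult2a6 and Trim24) and 2 lower (Cyp17a1 and Hao2). Hao2 was entered in both lists. Without it, 3 of 16 male-biased genes were called lower, and 4 of 15 female-biased genes higher and 1 lower. Akr1b7 and Sult2a2 are in the CAR and PXR group too. The shares over all genes were 1.45% called higher and 1.01% called lower. Trim24, a transcriptional coregulator, rose by 0.68 ± 0.11 (SE, adjusted p = 0.00647), and Cyp17a1, a steroid hydroxylase and lyase, fell by 1.04 (SE 0.19; adjusted p = 0.00978).

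**Figure D3:**
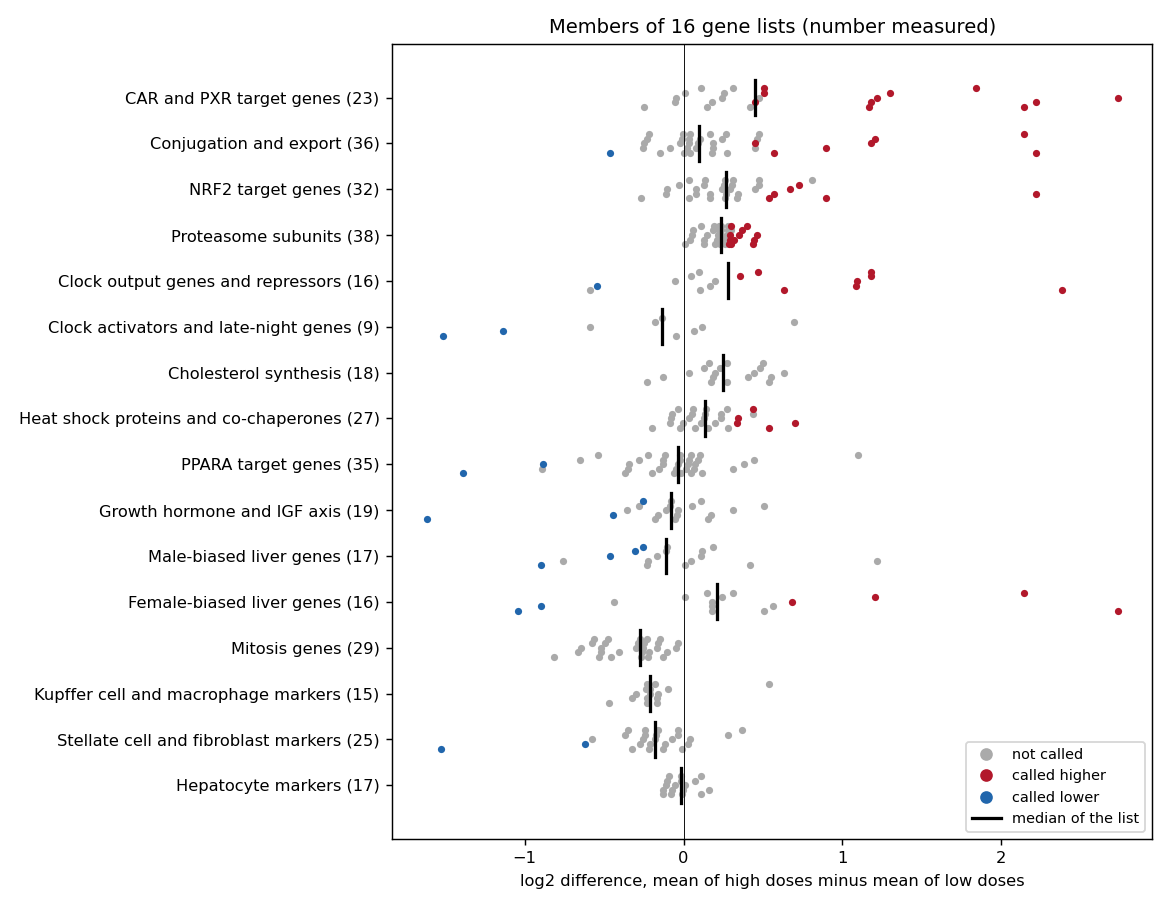
Log2 difference between the pools for every measured member of 16 gene lists, with the number measured in brackets; red and blue points are members called higher and lower, grey points are not called, and the black bar is the list's median. The 38 proteasome genes all lie above 0, the 29 mitosis genes all below 0 with none called (12 lie above 0 with 978.5 mg/kg alone as the high dose), and the 17 hepatocyte markers lie close to 0.

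The largest falls were those of Stac3 and Slc6a6. Stac3, an adaptor known from excitation and contraction coupling in skeletal muscle (chr7:65227151-65235884), measured 12.17, 11.10 and 11.30 at 61.2 mg/kg, 10.55, 11.14 and 10.39 at 122.5 mg/kg, 7.72, 8.72 and 9.97 at 489.2 mg/kg and 8.57, 7.90 and 8.42 at 978.5 mg/kg. The pools did not overlap, and the fall was -2.56 ± 0.32 (SE, 5.90-fold, adjusted p = 0.00145). Its vehicle arrays lay at 12.11, 12.24, 12.34, 10.76, 10.27 and 10.64, so arrays 1 to 3 lay near the top of the low pool or above it and arrays 4 to 6 near its lower end.

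Slc6a6, the importer of taurine (chr4:125752340-125826033), measured 9.66, 10.08 and 9.07 at 61.2 mg/kg, 8.58, 9.38 and 8.12 at 122.5 mg/kg, 6.66, 7.53 and 7.68 at 489.2 mg/kg and 6.41, 6.54 and 6.09 at 978.5 mg/kg. The pools did not overlap, and the dose means fell at every step, from 10.06 in vehicle and 9.60 at 61.2 mg/kg to 6.35 at 978.5 mg/kg. The difference was -2.33 ± 0.24 (SE, 5.02-fold, adjusted p = 0.000424). It was the only called gene among 28 of taurine and sulfur amino acid metabolism.

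Other falls without overlap included Nim1k, a kinase related to AMPK (-1.67 ± 0.21 SE), Nrep (-1.65 ± 0.26 SE), Lox, the collagen cross-linking lysyl oxidase (-1.53 ± 0.24 SE), Rprm (-1.40 ± 0.18 SE) and the tubulin Tubb2a (-1.15 ± 0.13 SE), with adjusted p between 0.000895 and 0.00514. Oat, the pericentral ornithine aminotransferase, fell by 1.0 (SE 0.16; adjusted p = 0.005). Its 244.6 mg/kg mean of 9.62 was already at the level of the high pool, 9.60. Slc22a8, the organic anion uptake transporter OAT3, fell by 1.14 (SE 0.19; adjusted p = 0.00645), with 11.04, 11.41 and 10.21 at 489.2 mg/kg and 10.60, 10.06 and 10.00 at 978.5 mg/kg against 11.30 to 12.02 in the low pool, so that the 489.2 mg/kg array 2 alone overlapped it.

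The called lipid genes gave no common direction. Of 35 PPARA targets, 2 were called lower and none higher, against 1.01% and 1.45% of all genes, with a median of -0.03. Angptl4, a secreted inhibitor of lipoprotein lipase, measured 11.70, 11.40 and 11.48 at 61.2 mg/kg, 10.65, 10.34 and 10.57 at 122.5 mg/kg, 9.39, 9.93 and 8.98 at 489.2 mg/kg and 9.91, 9.73 and 9.89 at 978.5 mg/kg. The 2 low doses were apart, by about 1, and both lay above all high arrays. The fall was -1.39 ± 0.13 (SE, 2.62-fold, adjusted p = 0.000277). Plin2, the coat protein of lipid droplets, fell by 0.89 (SE 0.10; adjusted p = 0.00067), from 12.58 to 13.06 in the low arrays to 11.57 to 12.27 in the high arrays. Cyp4a1, the classical PPARA target, differed by -0.34 ± 0.25 (SE, adjusted p = 0.611).

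In fatty acid and triglyceride synthesis 1 of 30 genes, the phosphatidate phosphatase Lpin2, was called higher (0.36 ± 0.07 SE, adjusted p = 0.0162) and 1, the elongase Elovl5, lower (-0.39 ± 0.07 SE, adjusted p = 0.013). For this list and those that follow, the shares over all genes were 1.45% higher and 1.01% lower. Scd, the stearoyl-CoA desaturase, had a larger difference, -1.41 ± 0.46 (SE), that missed the threshold (adjusted p = 0.146), with low arrays from 8.16 to 11.66 and high arrays from 7.54 to 10.00. Fasn differed by 0.20 ± 0.20 (SE, adjusted p = 0.738). Of 18 genes of cholesterol synthesis, 16 lay above 0, with a median of 0.25, and none was called. The squalene epoxidase Sqle stood nearest to the threshold (0.63 ± 0.15 SE, adjusted p = 0.053), and the next steps of the pathway gave 0.50 ± 0.14 (SE, adjusted p = 0.0798) for Lss and 0.54 ± 0.15 (SE, adjusted p = 0.0946) for Msmo1. The 978.5 mg/kg array 1 was the highest of all 12 in Sqle (10.85), Lss (11.58) and Msmo1 (13.43), and without the 978.5 mg/kg array 2 the number of called genes in the list was 5, and without the 61.2 mg/kg array 3 it was 1. Of 24 bile acid genes, 1 was called higher, the nuclear receptor Nr5a2 (0.23 ± 0.05 SE, adjusted p = 0.0431), whose call was lost without any 1 of the 12 arrays (adjusted p up to 0.114) and with the replicate block (0.052), and 2 lower. The 2 were the bile acid receptor Nr1h4 (-0.30 ± 0.06 SE, adjusted p = 0.0218) and Fgfr4 (-0.27 ± 0.06 SE, adjusted p = 0.0335), which passes the intestinal FGF signal to the hepatocyte. Nr1h4 lost its call in 6 of the 12 fits without 1 array (61.2 mg/kg arrays 1 and 3, 122.5 mg/kg arrays 1 and 2, and 978.5 mg/kg arrays 1 and 2; adjusted p up to 0.0592) and Fgfr4 in 9 (all but those without 61.2 mg/kg array 3, 122.5 mg/kg array 3 or 489.2 mg/kg array 2; up to 0.0928). Cyp7a1, the rate-limiting enzyme of bile acid synthesis, differed by 0.44 ± 0.26 (SE, adjusted p = 0.51), and the repressor Nr0b2 by 0.75 ± 0.22 (SE, adjusted p = 0.103).

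The few called targets of p53 lay in both directions. Of 19 measured, Mdm2 and Gadd45a were called higher and Cdkn1a lower, against 1.45% and 1.01% of all genes. The median of the 19 was -0.001, with 9 above 0 and 10 below. Cdkn1a, which encodes the cyclin-dependent kinase inhibitor p21, measured 10.12, 9.47 and 9.26 at 61.2 mg/kg, 9.44, 9.64 and 9.35 at 122.5 mg/kg, 8.33, 8.42 and 7.95 at 489.2 mg/kg and 8.01, 7.85 and 7.90 at 978.5 mg/kg. The pools did not overlap, and the fall was -1.47 ± 0.13 (SE, 2.77-fold, adjusted p = 0.000205). Mdm2, the ubiquitin ligase that removes p53, rose without overlap by 0.52 ± 0.06 (SE, adjusted p = 0.00137), from 8.46 to 8.65 in the low arrays to 8.74 to 9.34 in the high arrays. Gadd45a rose by 0.59 ± 0.12 (SE, adjusted p = 0.0251), and its call was lost in 6 of the 12 fits without 1 array (61.2 and 122.5 mg/kg arrays 1 and 2, 489.2 mg/kg array 1 and 978.5 mg/kg array 2; adjusted p up to 0.0781).

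Of 28 genes of ATF4 and the integrated stress response, 3 were called higher and none lower, with a median of 0.05. The shares over all genes were 1.45% and 1.01%. Asns, the asparagine synthetase, measured 9.76, 9.71 and 8.73 at 489.2 mg/kg and 10.02, 9.74 and 9.72 at 978.5 mg/kg, against 7.72 to 8.85 in the low pool. The 489.2 mg/kg array 3 lay among the low arrays, and the rise was 1.33 ± 0.20 (SE, adjusted p = 0.00441). Psat1, a serine synthesis enzyme of the same program, was also lowest of the high pool in that array (8.35) and was not called (0.92 ± 0.28 SE, adjusted p = 0.113). The other called members were Slc7a11 and the large neutral amino acid transporter Slc7a5 (0.59 ± 0.12 SE, adjusted p = 0.0232), whose call was lost in 5 of the 12 fits without 1 array (61.2 mg/kg array 1, 122.5 mg/kg arrays 1 and 2, 489.2 mg/kg array 1 and 978.5 mg/kg array 1; adjusted p up to 0.0685). Without the 489.2 mg/kg array 3 the count of called members was 6 higher and 1 lower, and without the 122.5 mg/kg array 2 it was 2 higher and 1 lower. None of 28 chaperones and markers of the unfolded protein response was called.

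Of 38 measured proteasome subunits and assembly factors, 12 were called higher, by small amounts, and none lower, against 1.45% and 1.01% of all genes. All 38 had a difference above 0, with a median of 0.23 and a range from 0.01 to 0.46. In 13 the high pool lay above the low pool without overlap, against 1.17% of all genes. The mean signal of the 38 ran from 10.60 to 10.71 in the low arrays, from 10.82 to 11.06 in the high arrays and from 10.55 to 10.77 in vehicle. Psma5, an alpha-ring subunit, measured 11.15, 11.26 and 11.10 at 61.2 mg/kg, 11.12, 11.11 and 11.08 at 122.5 mg/kg, 11.42, 11.45 and 11.56 at 489.2 mg/kg and 11.75, 11.67 and 11.58 at 978.5 mg/kg. The spread inside a dose was under 0.2, so that a rise of 0.44 ± 0.06 (SE, adjusted p = 0.00207) left a clear gap. The deubiquitinase of the cap, Psmd14, rose by 0.46 ± 0.08 (SE, adjusted p = 0.00647), the alpha-ring subunit Psma1 by 0.44 ± 0.07 (SE, adjusted p = 0.00366) and the assembly chaperone Psmd5 by 0.40 ± 0.06 (SE, adjusted p = 0.00524). None of 42 cytosolic ribosomal protein genes (median -0.04) and none of 52 respiratory chain genes (median 0.01) was called. With 2.46% of all genes called, an absence of calls in lists of this size is near that share. Leaving out 1 array gave 9 to 13 called proteasome genes. With 1 dose in place of a pool the count was 13 with 978.5 mg/kg alone as high, 0 with 489.2 mg/kg alone as high, and 2 with either low dose alone.

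**Figure D4:**
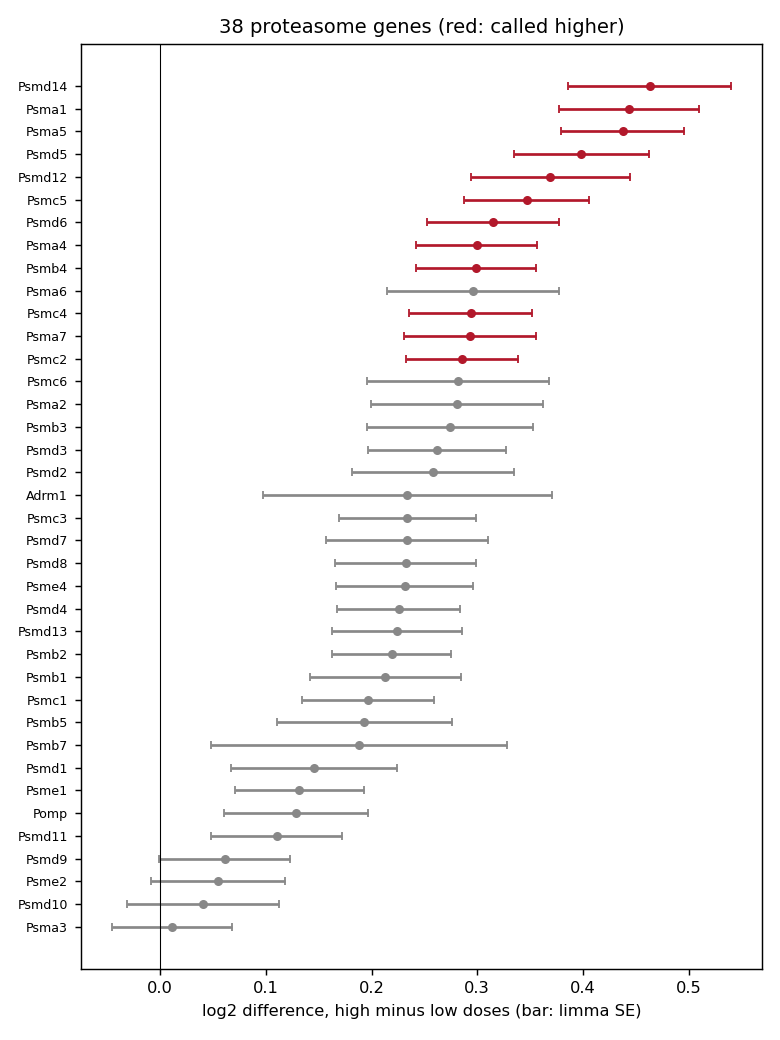
Log2 difference between the high and the low doses for the 38 measured proteasome genes, in order of size; points are limma estimates, bars are their standard errors, and red marks the 12 called higher. The estimates run from 0.01 (Psma3) to 0.46 (Psmd14).

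Heat shock proteins and co-chaperones showed 5 of 27 called higher and none lower, with a median of 0.14. The share of all genes called higher was 1.45%. Hsph1, the HSP110 nucleotide exchange factor, measured 10.76, 10.34 and 10.54 at 489.2 mg/kg and 10.01, 10.13 and 9.90 at 978.5 mg/kg, against 9.33 to 9.92 in the low pool, a rise of 0.70 ± 0.10 (SE, adjusted p = 0.00255). Its lower high dose carried the larger signal, although the step of -0.53 ± 0.14 (SE) was not called (adjusted p = 0.207). The HSP90 co-chaperone Chordc1 had the same shape, with means of 10.23 at 489.2 and 9.70 at 978.5 mg/kg, and rose by 0.54 ± 0.11 (SE, adjusted p = 0.0183). The other three were Hspb8 (0.44 ± 0.10 SE, adjusted p = 0.0404), Ahsa1 (0.34 ± 0.08 SE, adjusted p = 0.0372) and Dnaja1 (0.33 ± 0.07 SE, adjusted p = 0.031). The count fell to 1 without the 61.2 mg/kg array 2 or the 978.5 mg/kg array 2, to 2 or 3 without any other array except 61.2 mg/kg array 1 (5), 489.2 mg/kg array 2 (4) and 978.5 mg/kg array 3 (6), and no member was called with 978.5 mg/kg alone as the high dose or with 61.2 mg/kg alone as the low dose. Hspb8 lost its call in 10 of the 12 fits (all but those without 61.2 mg/kg array 1 or 978.5 mg/kg array 3; adjusted p up to 0.099), Ahsa1 in 9 (the same and 489.2 mg/kg array 2 excepted, up to 0.101) and with the replicate block (0.0542), Dnaja1 in 8 (all but those without 61.2 mg/kg array 3, 122.5 or 489.2 mg/kg array 2, or 978.5 mg/kg array 3; up to 0.0871) and Chordc1 in 2 (61.2 and 978.5 mg/kg arrays 2; up to 0.0544), while Hsph1 kept its call in all 12.

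Markers of other liver cells were called about as rarely as genes in general, of which 2.46% were called. Of 25 stellate cell and fibroblast markers, Lox and Pdgfrb were called lower, and 21 lay below 0, with a median of -0.18. Pdgfrb, the growth factor receptor of stellate cells, fell without overlap by 0.62 (SE 0.12; adjusted p = 0.0144). Its call was lost when probe sets were averaged and with the floor at the 20th percentile. The mean signal of the 25 ran from 7.73 to 8.06 in the low and from 7.40 to 7.98 in the high arrays. Of 15 Kupffer cell and macrophage markers, 14 lay below 0, with a median of -0.21 that became -0.01 without the 489.2 mg/kg array 1. Their mean signal in the high arrays (8.85 to 10.00) enclosed that in the low arrays (9.50 to 9.92). None was called, Cd163 included (-0.24 ± 0.17 SE, adjusted p = 0.602). None of 22 lymphocyte, 19 sinusoidal endothelial, 9 neutrophil or 8 red blood cell markers was called. Below 0 lay 21 of the lymphocyte, 12 of the endothelial and 7 of the red blood cell markers. Above 0 lay 8 of the neutrophil markers. Hba-a3, a haemoglobin chain, differed by -0.63 ± 0.25 (SE, adjusted p = 0.258). Of 12 bile duct markers only Epcam was called, higher by 0.47 ± 0.09 (SE, adjusted p = 0.0197), and its call was lost without the 61.2 mg/kg array 1 (0.0535) or the 978.5 mg/kg array 2 (0.0558).

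All 29 mitosis genes lay below 0, with a median of -0.28, and none was called. With 489.2 mg/kg alone as high the median was -0.67, and with 978.5 mg/kg alone it was -0.05, with 12 of the 29 genes above 0. Their mean signal ran from 5.50 to 7.33 in the low arrays and from 5.50 to 6.82 in the high arrays, so the pools covered nearly the same range. Ccnb2, a mitotic cyclin, measured 8.46, 6.81 and 6.20 at 61.2 mg/kg, 5.86, 7.80 and 8.24 at 122.5 mg/kg, 5.36, 7.04 and 5.55 at 489.2 mg/kg and 7.60, 5.78 and 7.13 at 978.5 mg/kg, a difference of -0.82 ± 0.50 (SE, adjusted p = 0.523). At 244.6 mg/kg the mean of the list was higher than in either pool, at 7.36 to 8.32. In vehicle it ran from 5.49 to 6.62, and the median difference of vehicle minus the low pool was -0.43. The median ranged from -0.58 without the 122.5 mg/kg array 1 to -0.12 without the 61.2 mg/kg array 1, where 5 genes lay above 0. It was -0.46 without the 61.2 mg/kg array 3, -0.16 without the 978.5 mg/kg array 2 and -0.13 without the 122.5 mg/kg array 3.

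Inside the pools few genes were called between the doses. Between 489.2 and 978.5 mg/kg, 4 genes (0.0281%) were called, all higher at 978.5 mg/kg: Sult2a2, Abcb1a, Car2 and Ttc39a. In limma 1715 genes had an unadjusted p under 0.05 for this step, where the threshold alone gives about 711. With 3 arrays per dose, the low number of calls does not show that the 2 high doses were alike. Car2, a carbonic anhydrase, measured 8.23, 8.26 and 7.57 at 489.2 mg/kg and 9.14, 9.43 and 9.02 at 978.5 mg/kg, a step of 1.18 ± 0.17 (SE, adjusted p = 0.0367). Ttc39a measured 5.61, 5.06 and 4.67 at 489.2 mg/kg and 6.39, 6.51 and 6.67 at 978.5 mg/kg, a step of 1.41 ± 0.18 (SE, adjusted p = 0.0258). In both, the 489.2 mg/kg array 3 lay below every array of the low pool. The count was 1 without the 61.2 mg/kg array 1, the 122.5 mg/kg array 3 or the 978.5 mg/kg array 3, 2 without the 978.5 mg/kg array 1, 9 without the 489.2 mg/kg array 2 and 35 without the 978.5 mg/kg array 2. Between 61.2 and 122.5 mg/kg limma called none (0.0%), with 587 genes at an unadjusted p under 0.05. The difference between the 2 steps was called in none (0.0%), with 1532 genes at an unadjusted p under 0.05, so no gene was shown to respond differently to a doubling at the top and at the bottom of the range.

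The doses outside the comparison show where the called genes lay between and beyond the pools. When the low pool is set to 0% and the high pool to 100% for each gene, the median place of the 206 genes called higher was -10.8% in vehicle, and -2.33%, 2.33%, 33.5%, 84.8% and 115% with rising dose from 61.2 to 978.5 mg/kg. For the 144 genes called lower the medians were -11.1%, -13.1%, 13.1%, 44.3%, 95.4% and 105%. The called genes were chosen on the pools, so the places of the 4 pooled doses describe the choice, while vehicle and 244.6 mg/kg took no part in it. The 244.6 mg/kg mean fell between the pools in 311 of the 350 genes, at or past the low pool in 25 and at or past the high pool in 14. In 181 of the 350, 115 higher and 66 lower, the means ran in order from the low pool through 244.6 and 489.2 to 978.5 mg/kg. The 978.5 mg/kg mean lay further out than the 489.2 mg/kg mean in 156 of the 206 genes called higher and in 85 of the 144 called lower.

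**Figure D5:**
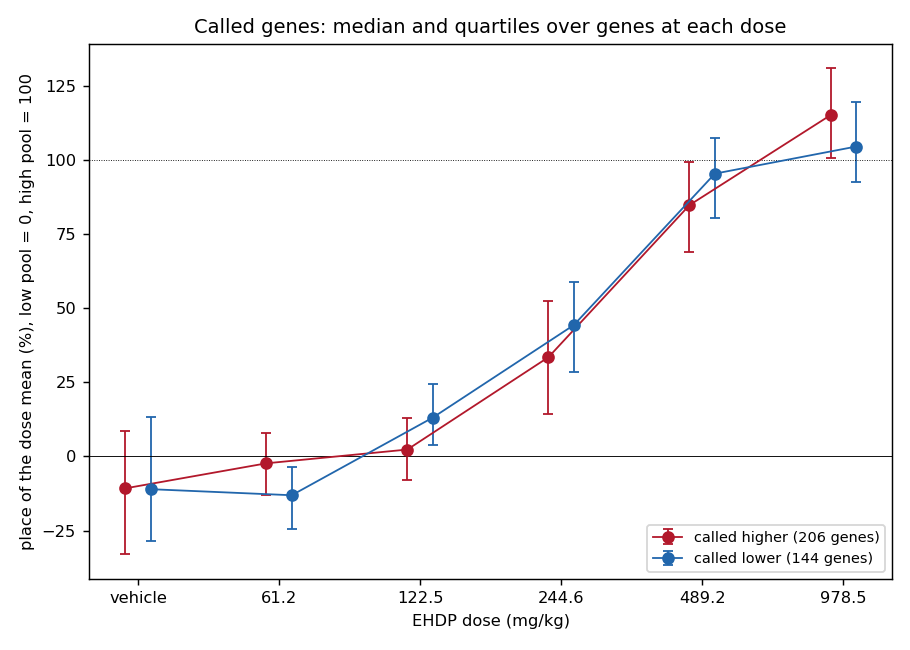
Place of each dose mean for the genes called higher (red, 206) and lower (blue, 144), on a scale where the low pool is 0% and the high pool 100%, against EHDP dose in mg/kg; points are medians over genes and bars run from the lower to the upper quartile. Vehicle lies near the low pool (-10.8% and -11.1%) and 244.6 mg/kg between the pools (33.5% and 44.3%).

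The vehicle mean was nearer to the low than to the high pool in 333 of the 350 called genes. In the other 17 it was nearer to the high pool, and the largest of these differences were those of Retreg1, Il1r1, Esm1, Enc1 and Lmo7. Retreg1, a receptor for the autophagy of endoplasmic reticulum, rose by 1.20 ± 0.21 (SE, adjusted p = 0.00938), with low arrays from 8.51 to 9.34 and high arrays from 9.46 to 10.76. Its vehicle arrays measured 8.31, 8.29, 8.65, 10.10, 10.89 and 11.39. Vehicle arrays 1 to 3 thus lay below the low pool or near its lower end, arrays 4 to 6 lay inside the high pool or above it, and the vehicle mean of 9.60 stands for neither set. Il1r1, the interleukin-1 receptor, rose by 0.92 ± 0.16 (SE, adjusted p = 0.00797), and its vehicle arrays ran from 8.96 to 11.50. Enc1 (0.65 ± 0.14 SE) and Esm1 (0.68 ± 0.14 SE) were called higher and Lmo7 (-0.64 ± 0.13 SE) lower, with adjusted p between 0.0197 and 0.0284. Without 1 array, Enc1 lost its call in 7 of 12 fits (61.2 mg/kg arrays 1 and 2, the 122.5 mg/kg arrays, and 489.2 mg/kg arrays 2 and 3; adjusted p up to 0.0814), Esm1 in 6 (61.2 and 122.5 mg/kg arrays 1 and 2, 489.2 mg/kg array 1 and 978.5 mg/kg array 2; up to 0.0678) and Lmo7 in 2 (122.5 mg/kg arrays 1 and 2; up to 0.0557).

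A set of single genes of other functions completed the called rises. Hdc, the histidine decarboxylase, rose without overlap by 1.19 ± 0.16 (SE, adjusted p = 0.00254), from 6.83 to 7.62 in the low arrays to 7.92 to 8.97 in the high arrays. Cers6, a ceramide synthase, rose by 1.01 ± 0.13 (SE, adjusted p = 0.00211), with means of 9.86 at 489.2 and 9.56 at 978.5 mg/kg. Vav2 rose by 0.93 ± 0.13 (SE, adjusted p = 0.00305), Ugt2b34l1 by 0.92 ± 0.15 (SE, adjusted p = 0.00512), and Manba, the lysosomal beta-mannosidase, by 0.66 ± 0.06 (SE, adjusted p = 0.000277). In Manba the 12 arrays were tightly grouped, at 8.93 to 9.19 in the low and 9.46 to 9.98 in the high pool.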

How the data were processed

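Log2 signals of 21 Affymetrix liver arrays are the authors' deposited values. The submitters' processing notes name robust multi-array average (RMA). Its version is not stated in the labels. Labelling started from 100 ng of total RNA. RMA normalises arrays together and compresses low signals, so differences of dim genes are understated. Of 31099 probe sets, 20832 were paired with 1 gene, 436 with several and 9831 with none. Only the first kind was used. Each of the 14218 genes was represented by its probe set of highest mean over all arrays, and 14168 matched RefSeq (GRCr8), the source of symbols, coordinates and promoters. No further scaling was applied.

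The 12 arrays were fitted with limma 3.58.1 (R 4.3.3), 1 mean per dose and 8 residual degrees of freedom, and Benjamini-Hochberg adjustment over all genes at 0.05. Vehicle and 244.6 mg/kg arrays are described without a test. On simulated data with 200 genes changed in 14218, the high against low comparison recovered 85% at 1.5-fold and 98.5% at 2-fold, with 10 and 8 false calls. The simulated noise was normal and independent for each gene and array, with no dose step inside a pool. The figures hold for that setting only, from which the real arrays may depart. The protocol names 3 rats per dose, and the number of arrays limits the precision.

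The comparison and the 52 gene lists (1190 of 1419 entries measured) were chosen with earlier results of these data known, so lists are described by counts and medians and were not tested. Genes were named by rule: the 12 largest rises and falls without overlap, the 8 smallest p, 4 members of each list with the smallest p, called genes with a called step in the high pool, the 5 largest differences with vehicle nearer to the high pool, and a set of known genes. Por, Aldh1a1, Hlf, Nr1d1, Nr1d2, Cry2, Nfil3, Cyp17a1, Hspb8 and Bcl6 were added after their values were seen, as was Psma3, the lowest proteasome gene. Same-numbered arrays of different doses were checked for pairing: 6 of 18 correlations of their deviations exceeded 0.1 (range -0.227 to 0.369). All 3 pairs of 61.2 with 978.5 mg/kg did (0.278 to 0.369), and no pair with 122.5 mg/kg did. Over the 4 doses the numbers were therefore not taken as pairs, and the block is an alternative. Python 3.11.15 with pandas 2.3.3 made the tables and matplotlib 3.10.9 the figures.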

Additional observations from a re-analysis of the deposited data

Results flagged for a closer look

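In 14 of 216 pools of 6 arrays examined for the named genes, the highest or lowest array stood away from the other 5 by more than Dixon's 95% limit. That limit gives about 10.8 such pools if the 6 arrays are alike and the pools independent. Here each pool joined 2 doses and many genes were named for their pool difference, so 10.8 is a rough guide only. In the high pool, the 489.2 mg/kg array 3 was low in Asns (8.73), Psat1 (8.35) and Cyp4a1 (9.62), the 489.2 mg/kg array 2 was low in Cyp1a1 (6.40) and Gadd45a (8.68), and the 489.2 mg/kg array 1 was low in Cyp1a2 (12.54) and Nr1d2 (9.14) and high in Cry1 (8.46). The 978.5 mg/kg array 1 was high in Sqle (10.85). In the low pool, the 122.5 mg/kg array 1 was low in Psmd14 (10.05), Slc7a11 (5.07), Cyp1a2 (12.73) and Cyp4a1 (10.69), and the 122.5 mg/kg array 3 was low in Hnf4a (12.33).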

How the results depend on the processing

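The count of 350 called genes stayed within 1.5 times under 1 mean per pool (281), all 21 arrays (433), averaging over probe sets (317), every probe set (461), genes above the median level (354), a floor at the 20th percentile (235), trend and robust options (374), arrays centred on their median (393), renewed quantile scaling (374) and 978.5 mg/kg alone as the high dose (419). It was 768 with array weights, 62 with 489.2 mg/kg alone as high, 188 with 61.2 mg/kg and 42 with 122.5 mg/kg alone as low, 116 at 1.5-fold and 40 at 2-fold; the fits with 1 dose left out of a pool use 9 arrays. Leaving out 1 array gave 196 to 387, of which 193 to 294 were among the 350. With the replicate block the count was 359, 5 of the named genes were no longer called (Gsr, Nr1d1, Ahsa1, Nr5a2 and Aco1, adjusted p 0.052 to 0.0606) and Sqle was (0.039), and same-numbered arrays deviated together between 61.2 and 978.5 mg/kg but not over all 4 doses. The share called higher was 58.9%, and 65.1% after median centring, 45.2% with 61.2 mg/kg alone as low and 69% with 122.5 mg/kg alone. For 978.5 against 489.2 mg/kg the count of 4 became 15 with all 21 arrays, 2 with the replicate block, 0 among genes above the median level and 1 to 35 without 1 array. For 122.5 against 61.2 mg/kg it was 0, and 0 to 1 without 1 array; for the difference between the steps 0, 1 with all 21 arrays and 0 to 4 without 1 array. With 489.2 mg/kg alone as the high dose the called members were 6 of CAR and PXR, 1 of NRF2, 0 of proteasome and 2 of clock output genes. With 122.5 mg/kg alone as low they were 5, 2, 2 and 1, and with 61.2 mg/kg alone 10, 5, 2 and 7. With 978.5 mg/kg alone as high they were 14, 10, 13 and 7, with all 21 arrays 13, 9, 20 and 6, and with array weights 13, 12, 21 and 8. Of the called genes named, 66 lost their call with 122.5 mg/kg alone as low, 64 with 489.2 mg/kg alone as high, 39 with 61.2 mg/kg alone as low, 17 with 978.5 mg/kg alone as high, 35 with the floor (Dbp, Akr1b7, Lox, Esm1 and Retreg1 among them), 19 with 1 mean per pool, 14 with averaged probe sets and 13 with all 21 arrays. The cause of these changes was not tested. The 14 lost with averaged probe sets were Car2, Cry2, Dnaja1, Elovl5, Enc1, Eprs1, Gsr, Hal, Igfbp3, Lpin2, Nr1d1, Nr5a2, Pdgfrb and Psmd14. In 108 of the 131 called genes with several probe sets, all probe sets differed in the same direction. Of 89 called genes named, 56 kept their call without any 1 array and 12 in all 26 alternatives; none changed sign. The labels give 3 arrays per dose, and dim genes such as Sult2a2 and Esm1 lie near the lower end of the scale.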

Other observations

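The groups not described above are given here with their called genes. Over all genes 2.46% were called, 1.45% higher and 1.01% lower. Of 17 genes of iron and copper handling 2 were called higher, the transferrin receptor Tfrc (0.74 ± 0.16 SE, adjusted p = 0.0308) and Aco1 (0.34 ± 0.08 SE, adjusted p = 0.0376, and 0.0591 with the replicate block), the iron regulatory protein that stabilises Tfrc mRNA. In both the 6 high arrays lay above the 6 low arrays, at 10.75 to 11.87 against 10.18 to 10.66 for Tfrc and at 10.74 to 11.09 against 10.51 to 10.73 for Aco1. Of 20 genes of ketone body and branched-chain catabolism, Hibch (0.56 ± 0.11 SE) and Bcat2 (0.36 ± 0.08 SE) were called higher, and of 33 aminoacyl-tRNA synthetases Eprs1 (0.33 ± 0.07 SE). Among 15 periportal genes the arginase Arg1 was called higher (0.25 ± 0.05 SE) and Hal (-0.47 ± 0.11 SE), Cyp2f4 and Igf1 lower, and among 14 pericentral genes Oat was called lower. Without 1 array, limma lost the call of Hal in 11 of the 12 fits (all but that without the 489.2 mg/kg array 3), of Aco1 in 10 (all but those without 489.2 mg/kg array 2 or 978.5 mg/kg array 3), of Tfrc in 9 (all but those without 122.5 mg/kg array 1, 489.2 mg/kg array 2 or 978.5 mg/kg array 3), of Arg1 in 9 (all but those without 61.2 mg/kg array 3, 489.2 mg/kg array 2 or 978.5 mg/kg array 1), of Eprs1 in 8 (all but those without a 61.2 or 122.5 mg/kg array 3 or a 489.2 or 978.5 mg/kg array 2), of Bcat2 in 7 (61.2 mg/kg arrays 2 and 3, 122.5 mg/kg arrays 1 and 2, 489.2 mg/kg array 1, and 978.5 mg/kg arrays 1 and 2) and of Hibch in 1 (61.2 mg/kg array 2). None of 23 acute phase genes (median 0.07), 35 genes of complement and coagulation (median -0.01), 37 interferon and antigen presentation genes (median -0.04), 24 genes of glucose and glycogen metabolism (median -0.06) or 28 genes of DNA replication (median 0.01) was called by limma, while over all genes tested 2008 had an unadjusted p under 0.05.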
